A study of Mus musculus with 32 samples.

Results

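AML12 control cells at 25 h were compared with AML12 control cells at 17 h, in 4 RNA-seq libraries per time, which were chosen by their labels alone and make up 8 of the 32 libraries of the series. AML12 is an immortalised hepatocyte line from the liver of a mouse carrying a transforming growth factor alpha transgene, so every library comes from 1 line with 1 genetic background. The labels give these cells a control treatment and do not say what that treatment contained or which event the hours are counted from. It is also not stated whether the 4 libraries of a time were cultured separately, so their spread may be technical. P-values measure only the spread between libraries of a group, in 1 fit of all 16 AML12 libraries rather than of these 8 alone. The series was designed around rhythmic communication between a pair of cell types. Its AML12 cells given an agent abbreviated DEX were sampled at 25 h and 17 h in 4 libraries each. These DEX cells serve here as the only comparison, and their spread also enters the p-values and SE of the control cells. The control cells of both times have the line and the control treatment in common and differ, by the labels, in time alone. A harvest or a sequencing batch that follows the time is not given and cannot be told apart from it.

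In cultured cells, time after a change of medium is known to move several programmes at once: growth factors and nutrients in the medium are used up, cells become denser, and division slows. The S phase programme is switched by E2F factors that act on the promoters of replication genes. Promoters of genes of the later mitotic programme often hold CCAAT boxes, which many other promoters hold as well. The circadian clock is a loop in which Arntl and Clock drive Per, Cry and Nr1d genes, whose products hold Arntl and Clock back; in a dish each cell keeps its own phase unless a signal such as serum or a glucocorticoid aligns them.

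Each library held 15032450 to 17409358 counts at 25 h and 15091352 to 17136325 counts at 17 h. Pairs of libraries within a time differed by 2.02 to 3.05 times the counting noise at 25 h and by 2.10 to 3.10 times at 17 h (chi-square per degree of freedom over genes), so none looked like another library deposited again and none stood apart. Of the DEX libraries, replicate 2 of 17 h and replicate 4 of 25 h stood apart, with pairs up to 17.5 and 4.96 times that noise. Levels are given in CPM, the usual per-library scaling of counts, here with TMM-scaled totals. The label of hepatocyte was checked against marker genes. Hnf4a, a hepatocyte transcription factor, was present at 221 CPM at 25 h and 215 CPM at 17 h, and Apob, an apolipoprotein, at 158 CPM at 25 h and 174 CPM at 17 h, whereas 8 of the 13 hepatocyte markers in the table were under 1 CPM, Alb among them (0.870 CPM at 25 h and 0.682 CPM at 17 h), and G6pc was at 0. The summed hepatocyte markers came to 475 to 516 CPM at 25 h and 477 to 515 CPM at 17 h, so the ranges overlapped. Bile duct and progenitor markers were present as well, with 5 of 6 at or above 10 CPM and a sum of 4774 to 5047 CPM at 25 h, against 3978 to 4164 CPM at 17 h. The markers of other cell types were low. At 25 h they summed to 6.60 to 8.74 CPM for fibroblast and stellate cells, 3.88 to 4.00 CPM for endothelium and 2.83 to 3.59 CPM for immune cells, against 7.88 to 8.44, 4.13 to 5.78 and 4.45 to 4.81 CPM for those types at 17 h. Heart muscle markers summed to 49.0 to 57.9 CPM at 25 h and 47.6 to 54.3 CPM at 17 h, nearly all of it Tnnt2, while Myh6 and Nppa were under 0.1 CPM. In bulk RNA, fewer cells of a kind and less RNA per cell cannot be told apart. The strand setting of the counting is not given, so the counts of Kif20a, Junb, G6pdx, Manf, Nop56, Ppat, Acss2, Dbp and Nr1d1 may hold reads of a gene that overlaps each of them on the other strand, at 30.3 CPM (Gss, beside Acss2) to 252 CPM (Prdx2, beside Junb). Other genes named below are affected too, for example Ddit3 (beside Mars, 101 CPM), Crim1 (beside Fez2, 100 CPM) and Syvn1 (beside Mrpl49, 61.1 CPM).

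Over this interval the control cells changed widely and mostly by a small amount. With edgeR's quasi-likelihood test over 14114 genes, 6140 passed an adjusted p of 0.05 (43.5% of those tested), 3122 of them higher at 25 h (22.1%) and 3018 lower (21.4%). At an unadjusted p of 0.05 the count was 7103. The median size of a called change was 0.31 on the log2 scale, and 170 of the called genes rose and 153 fell by at least 2-fold. All 4 libraries of 25 h lay above all 4 of 17 h for 3135 genes (22.2% of those tested) and below them for 3019 (21.4%). The near-equal split depends on the scaling: with total counts in place of TMM, whose factors were 0.986 to 0.994 at 25 h and 1.020 to 1.023 at 17 h, 39.5% of 6377 calls were higher, against 50.8% with TMM. Numbers in brackets after a gene give the fold change of 25 h over 17 h on the log2 scale ± SE from that test, and a gene is said to rise or fall only where its adjusted p passed. Among genes with a symbol other than a predicted or clone name, whose libraries did not overlap and which reached 1 CPM, the 15 largest rises ran between 1.45 and 2.36 and the 15 largest falls between -3.44 and -1.32. The falls came from low levels: 14 of the 15 averaged under 5 CPM at both times, against 7 of the 15 rises.

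**Figure D1:**
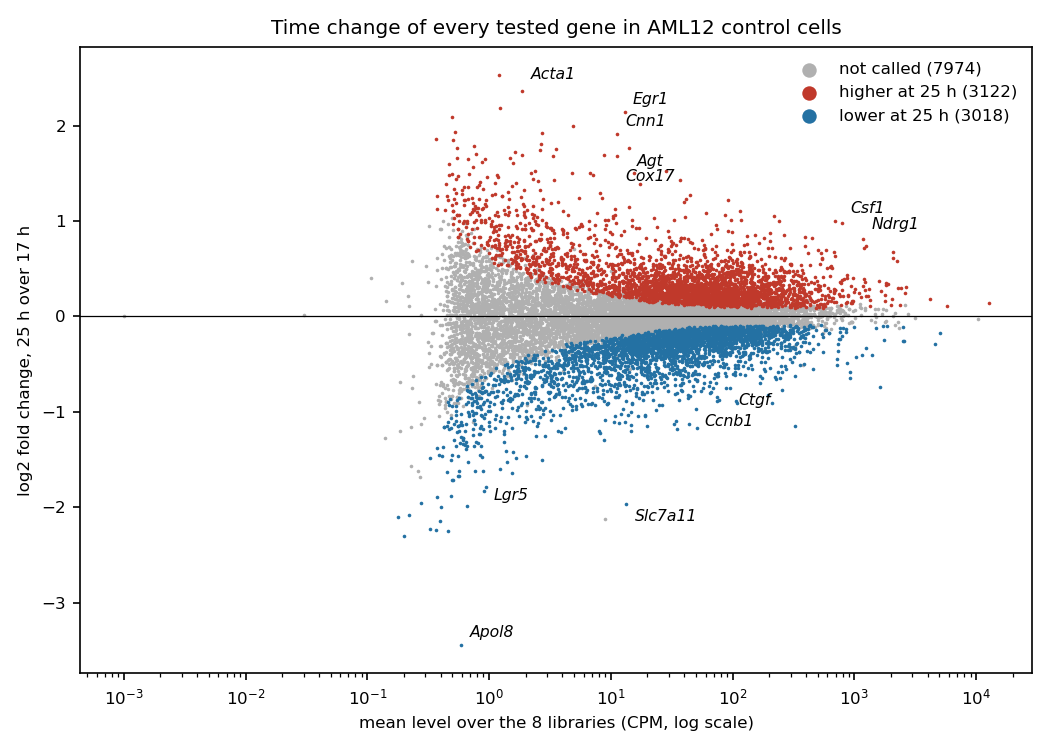
Time change of every tested gene in AML12 control cells. The horizontal axis is the mean level over the 8 libraries in CPM on a log scale (0.001 CPM added), the vertical axis the log2 fold change of 25 h over 17 h, and each point is 1 gene: 3122 were called higher at 25 h, 3018 lower and 7974 not called, and Acta1 lies at 2.36 and Apol8 at -3.44.

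Among these the largest rise was that of Acta1, the skeletal muscle form of actin (chromosome 8, 123891769 to 123894751, minus strand, GRCm38). It had 3.10, 3.52, 2.58 and 3.41 CPM in the 25 h libraries, against 0.449, 0.649, 0.571 and 0.756 CPM in the 17 h libraries. The groups did not overlap, although the 17 h libraries held only 7 to 13 reads each (2.36 ± 0.22, edgeR adjusted p = 6.54e-09). Egr1, an immediate early transcription factor induced by growth factor and stress signals, had 20.6, 22.2, 19.4 and 22.5 CPM in the 25 h libraries, against 4.43, 4.74, 4.51 and 5.52 CPM in the 17 h libraries. Every 25 h library lay far above the highest 17 h library (2.14 ± 0.12, edgeR adjusted p = 3.25e-12). Cnn1, the smooth muscle calponin that binds actin, averaged 17.9 ± 0.875 CPM at 25 h and 4.75 ± 0.568 CPM at 17 h (1.91 ± 0.16), and Mylk2, a myosin light chain kinase of skeletal muscle, 3.37 ± 0.469 CPM at 25 h and 1.24 ± 0.214 CPM at 17 h (1.45 ± 0.17). Agt, the precursor of angiotensin secreted by liver, stood at 21.8 ± 1.85 CPM at 25 h and 6.37 ± 0.868 CPM at 17 h (1.77 ± 0.15). Cox17, a copper chaperone for cytochrome c oxidase, stood at 17.2 ± 1.29 CPM at 25 h and 5.35 ± 0.539 CPM at 17 h (1.68 ± 0.09, edgeR adjusted p = 2.51e-12), and Lrrc32, which holds latent transforming growth factor beta at the cell surface, at 13.4 ± 0.975 CPM at 25 h and 4.14 ± 1.05 CPM at 17 h (1.69 ± 0.12). Ppbp, a chemokine, rose by 1.50 ± 0.10 and Clca3b by 1.53 ± 0.14; the Clca genes are close copies of each other, so reads may have been shared among them. Chad (1.81 ± 0.17) lies over the far more abundant Acsf2 on the other strand, and because the strand setting of the counting is not given, the reads of these genes cannot be told apart. The remaining largest rises were S100a7a, Prr18, Endou, Abcg4 and Mir133a-2, between 1.46 and 1.75.

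The largest fall at an appreciable level was that of Slc7a11, the light chain of the cystine and glutamate exchanger (chromosome 3, 49892526 to 50443614, minus strand). It had 5.73, 6.07, 5.29 and 4.74 CPM in the 25 h libraries, against 21.2, 22.8, 21.5 and 19.9 CPM in the 17 h libraries. The 25 h libraries lay far below the 17 h libraries, with no overlap (-1.97 ± 0.09, edgeR adjusted p = 9.82e-14). The other large falls were of genes with few reads. Apol8, an apolipoprotein L family member, had 6 reads in the 4 libraries of 25 h and 71 in those of 17 h (-3.44 ± 0.45), and Lrrn4cl 17 at 25 h and 70 at 17 h (-1.99 ± 0.36). Lgr5, a receptor for R-spondins and a Wnt target, had 27 reads at 25 h and 96 at 17 h (-1.79 ± 0.28), and Ccne1, the cyclin that takes cells into S phase, 39 at 25 h and 121 at 17 h (-1.60 ± 0.24). Tgm1, a transglutaminase of epidermis (-1.62 ± 0.30), Rnf183, a ubiquitin ligase (-1.52 ± 0.22), Klf12, a repressor of the Kruppel-like family (-1.47 ± 0.22), and Pygm, muscle glycogen phosphorylase (-1.41 ± 0.29), also fell. Naaladl1, Sec1, Serpinb5, Scd4, Slc16a8 and Slc4a1 complete the 15, between -1.49 and -1.32.

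**Figure D2:**
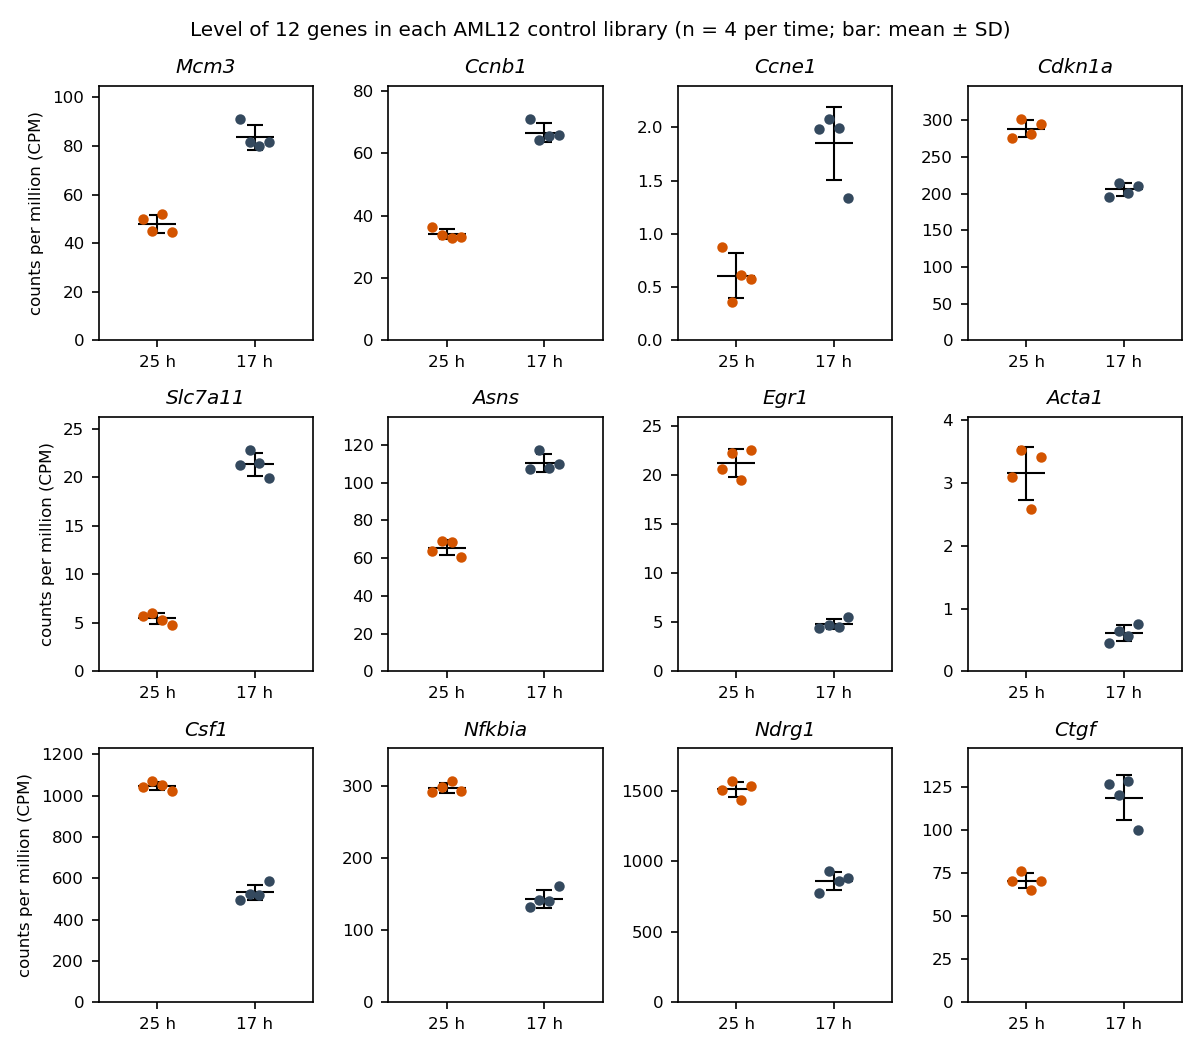
Level of 12 genes in each AML12 control library, in CPM on linear axes from 0, with 25 h left of 17 h. Points are libraries and the bars mark the mean ± SD of 4; in each panel the libraries of the 2 times are separate, for example Slc7a11 at 4.74 to 6.07 CPM at 25 h against 19.9 to 22.8 CPM at 17 h.

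Genes of the cell cycle fell together. Of 36 tested genes of S phase and DNA replication, 34 fell and 2 were not called, with a median of -0.51. All 32 tested genes of G2 and mitosis fell, with a median of -0.63. Over all genes tested 22.1% rose, 21.4% fell and the median was -0.0050. The counts of every list below are to be read beside these shares. Mcm3, a subunit of the helicase that unwinds DNA at replication origins (chromosome 1, 20802968 to 20820312, minus strand), had 49.9, 45.1, 51.9 and 44.6 CPM in the 25 h libraries, against 91.0, 81.4, 80.0 and 81.5 CPM in the 17 h libraries. Replicate 1 of 17 h was highest, and the groups were far apart (-0.80 ± 0.07, edgeR adjusted p = 1.09e-09). Its partners Mcm4 (-0.70 ± 0.08) and Mcm5 (-0.62 ± 0.07) fell by a like amount, and Cdc6, which loads the helicase, stood at 6.80 ± 1.39 CPM at 25 h and 14.6 ± 1.07 CPM at 17 h (-1.11 ± 0.10). The 2 members not called, named here after their values were seen, were E2f1 (-0.04 ± 0.08), the E2F factor itself, and Pold1 (0.06 ± 0.07), the catalytic subunit of DNA polymerase delta.

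Ccnb1, the cyclin that drives entry into mitosis (chromosome 13, 100778650 to 100786570, minus strand), had 36.3, 33.8, 33.0 and 33.0 CPM in the 25 h libraries, against 70.9, 64.2, 65.6 and 65.7 CPM in the 17 h libraries. Every 25 h library lay far below every 17 h library (-0.97 ± 0.06, edgeR adjusted p = 3.28e-11). Tpx2, which activates Aurora kinase A on the spindle, stood at 56.2 ± 3.08 CPM at 25 h and 90.8 ± 3.01 CPM at 17 h (-0.69 ± 0.05), Kif20a, a kinesin of cytokinesis, at 42.5 ± 2.49 CPM at 25 h and 71.7 ± 3.10 CPM at 17 h (-0.75 ± 0.06), and Bub1b, of the spindle checkpoint, at 54.6 ± 3.37 CPM at 25 h and 85.3 ± 4.10 CPM at 17 h (-0.65 ± 0.06). The promoter windows of Mcm3 and Ccnb1, the members with the smallest p of each list, are shown because promoters of their groups often hold these short motifs. They run over 300 bases, 250 before to 50 after the RefSeq start, on GRCm38.p6, at chr1:20820263-20820562 (minus strand) and chr13:100786437-100786736 (minus strand). Capitals mark matches on either strand to the E2F motifs TTTGGCGC and TTTCCCGC in Mcm3, and to CCAAT in Ccnb1.
Mcm3: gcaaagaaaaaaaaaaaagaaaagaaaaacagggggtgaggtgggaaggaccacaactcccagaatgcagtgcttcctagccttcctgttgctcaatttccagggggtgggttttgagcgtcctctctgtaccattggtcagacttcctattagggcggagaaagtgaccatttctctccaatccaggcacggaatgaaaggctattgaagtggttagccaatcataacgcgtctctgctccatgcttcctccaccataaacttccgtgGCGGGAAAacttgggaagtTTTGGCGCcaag
Ccnb1: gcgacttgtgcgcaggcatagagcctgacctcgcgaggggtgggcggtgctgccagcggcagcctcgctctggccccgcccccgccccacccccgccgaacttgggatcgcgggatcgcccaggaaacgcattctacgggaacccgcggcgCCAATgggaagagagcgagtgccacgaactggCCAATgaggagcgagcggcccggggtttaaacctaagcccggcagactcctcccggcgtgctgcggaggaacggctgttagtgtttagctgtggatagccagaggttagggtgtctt
Mcm3 held 2 E2F matches, both past the start, and Ccnb1 held 2 of CCAAT. Of 32851 such windows of the RefSeq table, 1.56% held an E2F match and 37.4% a CCAAT match. Among the listed genes with a window, 10 of 30 S phase genes held an E2F match and 22 of 26 mitotic genes a CCAAT match. CCAAT is not particular to mitotic genes: 16 of 17 genes of the cholesterol list held it. A listed gene counts if any of its windows matches, whereas the shares of all windows count single windows. These are matches of letters, and whether a factor sat there was not measured.

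The regulators of G1 were mixed. Of 20 tested, 8 rose and 5 fell (median 0.03). Cdk6, a kinase partner of D cyclins, rose by 0.47 ± 0.05 at 322 ± 10.8 CPM at 25 h and 232 ± 10.6 CPM at 17 h, whereas Ccnd1, cyclin D1, fell by 0.28 ± 0.04 at 383 ± 18.4 CPM at 25 h and 466 ± 21.2 CPM at 17 h. The pocket protein Rbl1 (-0.59 ± 0.07) and the kinase inhibitor Cdkn2c (-0.50 ± 0.08) fell too. Targets of p53 went mostly the other way: 13 of 23 rose, 2 fell, and the median was 0.17. Cdkn1a, the p21 inhibitor of cyclin-dependent kinases, had 276, 302, 282 and 295 CPM in the 25 h libraries, against 196, 215, 202 and 211 CPM in the 17 h libraries. All 4 libraries of 25 h were above those of 17 h (0.49 ± 0.06, edgeR adjusted p = 1.96e-07). Bbc3 (0.64 ± 0.07) and Pmaip1 (0.51 ± 0.05), which promote cell death at mitochondria, and Ephx1, an epoxide hydrolase (0.47 ± 0.04), were also higher. The 2 that fell, Dcxr (-0.29 ± 0.07) and Trp53inp1 (-0.20 ± 0.05), were named after their values were seen.

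Genes of amino acid supply fell in the same window. The integrated stress response acts through the factor Atf4, which turns on amino acid transporters and synthesis enzymes when amino acids are short. Of 29 tested genes of this list 16 fell and 7 rose (median -0.22). Asns, asparagine synthetase, had 63.8, 69.0, 68.7 and 60.6 CPM in the 25 h libraries, against 107, 117, 107 and 109.8 CPM in the 17 h libraries. The highest 25 h library lay far under the lowest 17 h library (-0.75 ± 0.05, edgeR adjusted p = 4.77e-11). Slc7a5, a transporter of large neutral amino acids (-0.85 ± 0.07), and Mthfd2, a mitochondrial enzyme of one-carbon metabolism (-0.82 ± 0.07), fell, as did Trib3, a pseudokinase induced by this pathway (-1.14 ± 0.10). Members that rose against them, named after their values were seen, were Ddit4 (0.82 ± 0.07), an inhibitor of mTORC1 signalling, Ddit3 (0.59 ± 0.08), the CHOP transcription factor, and Nupr1 (0.62 ± 0.09). Atf4 itself was at 183 ± 6.38 CPM at 25 h and 196 ± 5.93 CPM at 17 h and was not called (-0.10 ± 0.05).

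The promoter window of Slc7a11, the member with the smallest p, is shown because amino acid genes are known to carry an amino acid response element. It lies at chr3:50443564-50443863 (minus strand, GRCm38.p6), and capitals mark matches to TGATGNAA on either strand.
Slc7a11: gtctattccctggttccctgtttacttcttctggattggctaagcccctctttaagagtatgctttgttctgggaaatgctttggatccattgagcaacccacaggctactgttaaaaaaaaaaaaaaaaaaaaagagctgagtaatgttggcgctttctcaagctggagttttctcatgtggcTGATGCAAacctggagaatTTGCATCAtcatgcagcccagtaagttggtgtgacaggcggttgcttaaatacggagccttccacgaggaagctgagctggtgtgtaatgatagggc
It held 2 matches that face each other just before the start. A match was found in 3.97% of all windows and for 9 of the 26 genes of the list with a window. The match describes the sequence alone, beside the measured fall of this gene.

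Genes of nucleotide, polyamine and one-carbon synthesis fell in 14 of 25 cases and rose in 4 (median -0.14); without replicate 3 of 25 h or replicate 2 of 17 h 2 rose, and with total counts 1. Amd1, which makes the aminopropyl donor of polyamines (-0.50 ± 0.05), Ppat, the first committed enzyme of purine synthesis (-0.50 ± 0.05), and Mthfd1l, of mitochondrial folate metabolism (-0.39 ± 0.05), fell. The antioxidant programme of the factor NRF2 fell in 13 of 23 cases, rose in 2 and had a median of -0.19. Gclc, the catalytic subunit of the rate-limiting enzyme of glutathione synthesis, stood at 293 ± 11.0 CPM at 25 h and 418 ± 7.93 CPM at 17 h (-0.51 ± 0.04, edgeR adjusted p = 6.27e-10). Txnrd1, thioredoxin reductase (-0.54 ± 0.04), and G6pdx, glucose-6-phosphate dehydrogenase (-0.68 ± 0.05), fell as well. The 2 that rose, named after their values were seen, were the glutathione transferase Gstm1 (0.35 ± 0.06) and the export pump Abcc3 (0.12 ± 0.04), whose call was lost without any one of replicates 1 and 2 of 25 h or 3 and 4 of 17 h (edgeR adjusted p of 0.0556 to 0.0881), without the low-count filter (0.0848) and with total counts (0.146).

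Genes of the unfolded protein response, many of them chaperones of the endoplasmic reticulum, fell in 13 of 24 cases and rose in 1 (median -0.16). Calr, calreticulin, stood at 609 ± 8.30 CPM at 25 h and 829 ± 25.5 CPM at 17 h (-0.45 ± 0.03, edgeR adjusted p = 4.2e-10). Hspa5, the BiP chaperone (-0.37 ± 0.05), Pdia6, a protein disulfide isomerase (-0.43 ± 0.05), and Manf (-0.44 ± 0.05) fell by similar amounts. The 1 rise, Syvn1 (0.14 ± 0.05), was not called without replicate 1 of 25 h or replicate 1 of 17 h (edgeR adjusted p of 0.0723 and 0.0513), nor with total counts (0.10). The list of heat shock proteins did not share this direction, with 7 rises and 3 falls among 18 (median 0.07). With total counts 6 fell, and 5 with the 8 control libraries alone. The small heat shock protein Cryab (0.71 ± 0.06), the heat shock factor Hsf1 (0.43 ± 0.05) and the constitutive chaperone Hspa8 (0.29 ± 0.04) rose.

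Genes of cholesterol synthesis mostly fell. Of 25 tested genes of cholesterol synthesis and uptake, 19 fell and 6 were not called (median -0.23). Tm7sf2, a sterol reductase, had 53.3, 48.5, 44.3 and 45.6 CPM in the 25 h libraries, against 81.6, 79.1, 78.8 and 78.4 CPM in the 17 h libraries. No library overlapped (-0.73 ± 0.05, edgeR adjusted p = 1.28e-10). Dhcr7 (-0.48 ± 0.05), Hsd17b7 (-0.72 ± 0.07) and Ebp (-0.39 ± 0.04), further enzymes of the late steps, fell. Tm7sf2 overlaps Vps51 on the same strand, so that part of its count may belong there. Fatty acid synthesis and storage had 10 falls and 1 rise among 20 (median -0.08). Acss2, which makes acetyl-CoA from acetate (-0.89 ± 0.09), the elongase Elovl6 (-0.58 ± 0.08), the desaturase Scd1 (-0.41 ± 0.05) and the triglyceride enzyme Dgat2 (-0.40 ± 0.06) fell. The 1 rise was Plin2, a coat protein of lipid droplets (0.19 ± 0.06), which was not called with total counts (edgeR adjusted p = 0.0508). With replicate 4 of 25 h left out, or with the 8 control libraries alone, 2 genes of the list rose. Fatty acid oxidation gave 5 falls and 3 rises among 18 and a median of -0.0023, a share of calls near the 43.5% of all genes. Angptl4, a secreted lipase inhibitor (0.77 ± 0.06), and the coactivator Ppargc1a (0.53 ± 0.10) were higher. Hadhb (-0.26 ± 0.06) and Cpt1a (-0.19 ± 0.04), enzymes of mitochondrial oxidation, were lower.

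Among all lists the highest median was that of chemokines and NF-kB targets. Of 32 tested genes 22 rose and 1 fell (median 0.41). Csf1, the growth factor of macrophages (chromosome 3, 107741048 to 107760469, minus strand), had 1042, 1069, 1050.3 and 1024 CPM in the 25 h libraries, against 497, 525, 520.4 and 586 CPM in the 17 h libraries. The 25 h libraries lay close together, far above replicate 4 of 17 h, the highest of its group (0.98 ± 0.05, edgeR adjusted p = 1.17e-12). Nfkbia, the inhibitor that NF-kB induces against itself, had 291, 299, 306 and 294 CPM in the 25 h libraries, against 132, 141, 139.9 and 162 CPM in the 17 h libraries. Replicate 4 of 17 h was the highest of its group and still far below 25 h (1.05 ± 0.06, edgeR adjusted p = 3.41e-12). The cytokine Lif stood at 129.7 ± 6.31 CPM at 25 h and 64.5 ± 4.49 CPM at 17 h (1.01 ± 0.05), and the adhesion receptor Vcam1 at 258 ± 13.3 CPM at 25 h and 149.8 ± 11.6 CPM at 17 h (0.79 ± 0.06). The 1 fall was Saa3, a serum amyloid of the acute phase (-0.63 ± 0.10), and 2 genes fell with total counts or with the 8 control libraries alone. The summed immune cell markers were lower at 25 h in every library, and Cd68 among them, a lysosomal protein of macrophages, stood at 2.51 ± 0.338 CPM at 25 h and 3.84 ± 0.267 CPM at 17 h (-0.61 ± 0.14).

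The promoter window of Csf1, the member with the smallest p, is shown because this gene is a known NF-kB target. It lies at chr3:107760420-107760719 (minus strand, GRCm38.p6), with the kB motif GGACTTTCC in capitals, here on the opposite strand.
Csf1: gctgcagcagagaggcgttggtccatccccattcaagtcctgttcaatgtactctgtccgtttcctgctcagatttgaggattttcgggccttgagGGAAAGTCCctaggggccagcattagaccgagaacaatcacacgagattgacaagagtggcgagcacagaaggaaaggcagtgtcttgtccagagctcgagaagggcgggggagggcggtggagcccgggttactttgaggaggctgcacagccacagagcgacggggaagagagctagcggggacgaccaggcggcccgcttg
The motif occurs 1 time in it. It was found in 0.344% of all windows and for 3 of the 26 genes of the list with a window. The other 23 genes do not hold these letters within this distance of the start.

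Of 23 interferon and antigen presentation genes 6 rose, 3 fell and 14 were not called (median 0.15), shares near those of all genes. Irf1, a transcription factor that both interferon and NF-kB induce, had 157, 163, 153 and 153 CPM in the 25 h libraries, against 72.4, 78.4, 72.4 and 88.0 CPM in the 17 h libraries. The groups were well apart (1.01 ± 0.06, edgeR adjusted p = 1.11e-11). The signalling factor Stat2 (0.43 ± 0.05) and the RNA sensor Ddx58 (0.43 ± 0.07) rose, and Oas1a (-0.79 ± 0.17) fell. Acute phase and complement genes had 5 rises and 7 falls among 17 (median 0.01), with Lbp, which binds bacterial lipopolysaccharide (0.28 ± 0.04), complement C3 (0.30 ± 0.05) and the transcription factor Stat3 (0.27 ± 0.04) higher, and Saa3 lower. The other falls were those of Hp, Hpx, C1s1, C1ra, Socs3 and Il6ra, named after their values were seen. They lay between -0.40 for Hp, a plasma protein that binds haemoglobin, and -0.20 for C1ra, a complement protease. C1ra only just passed (edgeR adjusted p = 0.0489) with overlapping libraries, at 67.6 to 75.2 CPM at 25 h and 74.2 to 86.0 CPM at 17 h. Its call was not examined under the alternatives.

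**Figure D3:**
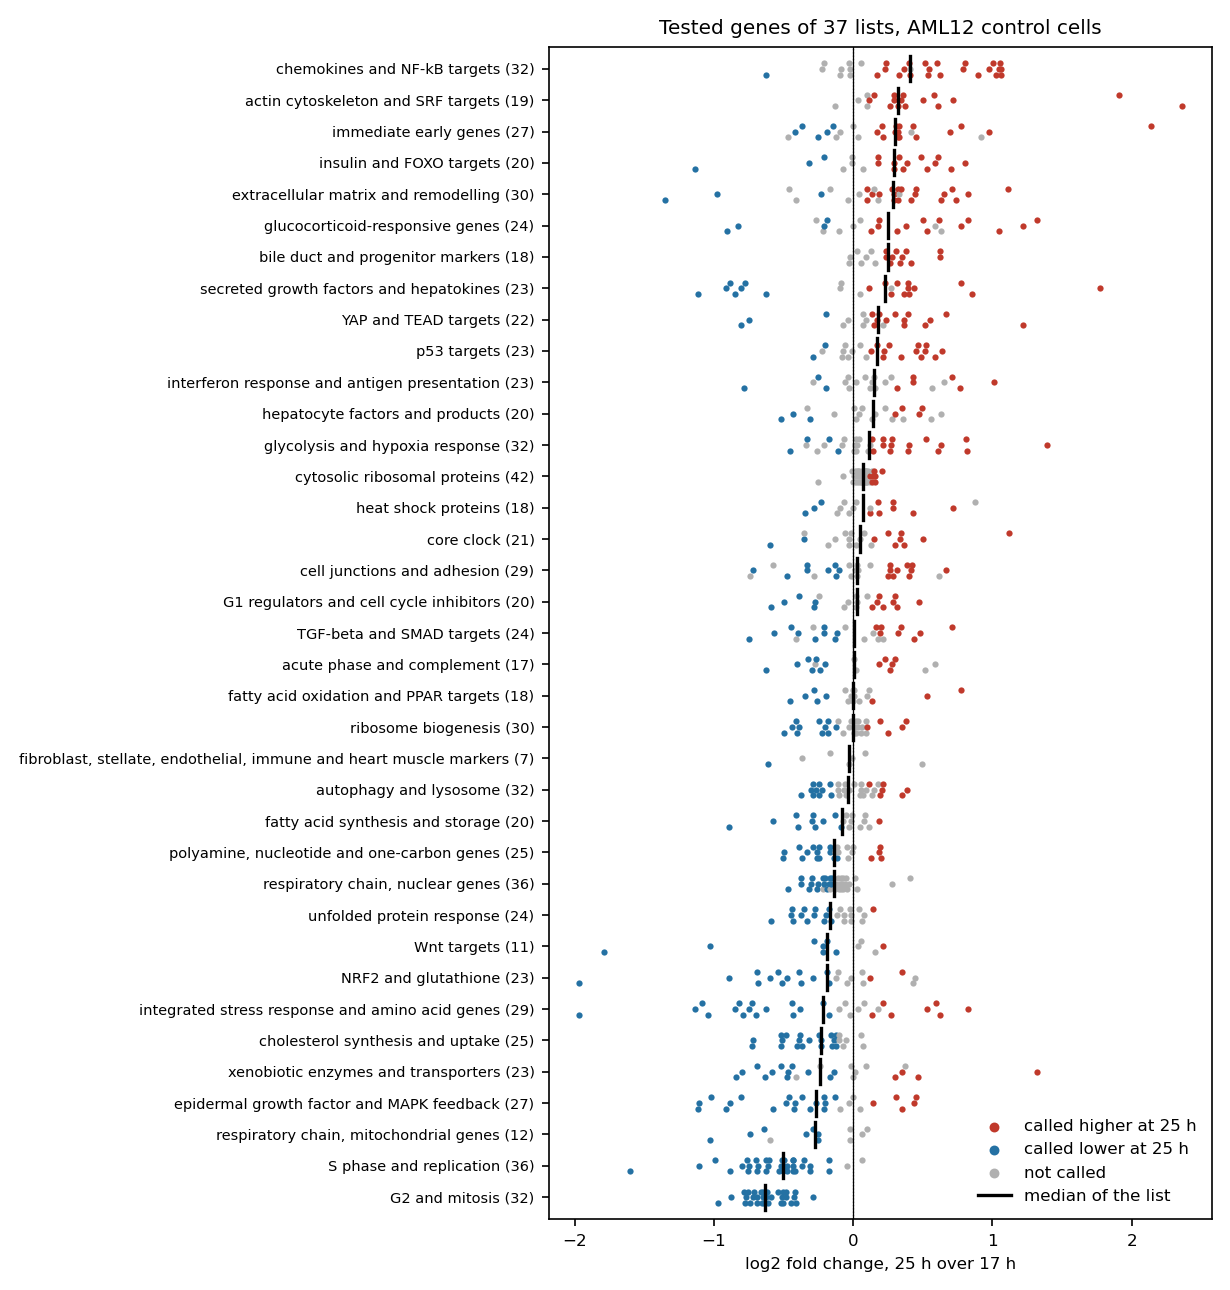
Log2 fold change of 25 h over 17 h for the tested genes of 37 lists in AML12 control cells, with the number tested in brackets. Each point is a gene, coloured by its call, and the black bar is the median of the list; the medians run from -0.63 for G2 and mitosis to 0.41 for chemokines and NF-kB targets.

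Genes of the actin cytoskeleton, many of them targets of the serum response factor, rose in 15 of 19 cases and were not called in 4 (median 0.33). Cnn2, a calponin of non-muscle cells, had 242, 256, 243 and 235 CPM in the 25 h libraries, against 145, 143, 151 and 156 CPM in the 17 h libraries. Every 25 h library was above every 17 h library (0.72 ± 0.05, edgeR adjusted p = 9.3e-11). Actg1, cytoplasmic gamma actin, stood at 2519 ± 43.6 CPM at 25 h and 1649 ± 29.6 CPM at 17 h (0.61 ± 0.05); it is nearly identical to Actb in sequence, and reads may be divided between them. Of 27 immediate early genes 15 rose and 5 fell (median 0.30). Beside Egr1, Klf10 (0.77 ± 0.06), Junb (0.69 ± 0.06) and Dusp6 (0.45 ± 0.05), a phosphatase that turns off ERK, rose, whereas Fos was not called (-0.12 ± 0.13, named after its value was seen). Targets of YAP and TEAD, factors that respond to cell shape and density, rose in 13 of 22 cases and fell in 3 (median 0.18). Amotl2, an angiomotin that binds YAP, stood at 653 ± 16.3 CPM at 25 h and 412 ± 9.54 CPM at 17 h (0.67 ± 0.04, edgeR adjusted p = 3.41e-12), Gadd45b, a stress-induced growth regulator, at 129 ± 6.21 CPM at 25 h and 55.7 ± 2.85 CPM at 17 h (1.22 ± 0.07), and the matricellular protein Cyr61 at 294 ± 11.0 CPM at 25 h and 205 ± 5.76 CPM at 17 h (0.52 ± 0.05). Ctgf, the close relative of Cyr61, went the other way. It had 70.3, 76.1, 65.3 and 70.2 CPM in the 25 h libraries, against 126, 120.4, 128 and 99.7 CPM in the 17 h libraries. Replicate 4 of 17 h was the lowest of its group and still above all of 25 h (-0.75 ± 0.08, edgeR adjusted p = 2.93e-08). Areg, a ligand of the epidermal growth factor receptor (-0.81 ± 0.10), and Crim1, which binds BMPs (-0.20 ± 0.04), were the other members that fell.

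Genes of the extracellular matrix rose in 19 of 30 cases and fell in 3 (median 0.29). Loxl2, an enzyme that crosslinks collagen, had 183, 182, 193 and 186 CPM in the 25 h libraries, against 113, 124, 116 and 120.1 CPM in the 17 h libraries. The groups did not overlap (0.65 ± 0.04, edgeR adjusted p = 4.68e-11). The laminin chain Lama5 (0.74 ± 0.05) and thrombospondin 1, Thbs1 (0.45 ± 0.03), rose. The falls, named after their values were seen, were the laminin chain Lamb1, at 15.7 ± 1.26 CPM at 25 h and 31.0 ± 1.41 CPM at 17 h (-0.98 ± 0.08), Col5a1 (-1.35 ± 0.34, on 24 reads at 25 h and 63 at 17 h) and Timp1 (-0.23 ± 0.09), whose libraries overlapped and whose call was lost without any one of 6 of the 8 libraries (edgeR adjusted p of 0.0521 to 0.162), replicate 1 of 25 h and replicate 3 of 17 h being the exceptions. Targets of transforming growth factor beta did not share a direction, with 8 rises and 9 falls among 24 (median 0.01), among them a rise of Smad3 (0.48 ± 0.04), which carries the signal to the nucleus, and a fall of Id1 (-0.57 ± 0.05), a target of the related BMP signal. Junction genes gave 10 rises and 8 falls among 29 (median 0.03), beside 22.1% higher and 21.4% lower among all genes. The desmosomal cadherin Dsg2 (0.67 ± 0.04) and the tight junction protein Cgn (0.38 ± 0.04) rose.

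Markers of bile duct and progenitor cells rose in 11 of 18 cases and were not called in 7 (median 0.25). Jag1, a ligand of Notch receptors, had 264, 274, 272 and 269.8 CPM in the 25 h libraries, against 175, 182, 168 and 175 CPM in the 17 h libraries. The spread within a time was small beside the gap (0.63 ± 0.04, edgeR adjusted p = 1.09e-11). The transcription factor Onecut2 (0.63 ± 0.07) and the keratins Krt8 (0.31 ± 0.04), Krt18 (0.38 ± 0.05) and Krt19 (0.26 ± 0.04) rose. Of 20 tested hepatocyte factors and products, 4 rose, 3 fell and 13 were not called (median 0.14), which is no larger a share than among all genes. The rises included Foxa3, a transcription factor (0.50 ± 0.07), and the falls Rbp4, the carrier of retinol in plasma (-0.31 ± 0.05). The hepatocyte products Alb, Ttr and Apoa1 stayed under 1 CPM at both times.

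Feedback regulators and ligands of the epidermal growth factor and MAPK pathway fell in 18 of 27 cases and rose in 5 (median -0.27). Ereg, epiregulin, a ligand of the epidermal growth factor receptor, had 7.08, 7.04, 7.44 and 7.75 CPM in the 25 h libraries, against 16.0, 15.4, 16.3 and 16.0 CPM in the 17 h libraries. The libraries of each time lay within 1 CPM of each other and the groups far apart (-1.12 ± 0.08, edgeR adjusted p = 1.73e-10). Betacellulin, Btc (-0.91 ± 0.09), and amphiregulin, Areg, fell as well, whereas Hbegf (0.44 ± 0.04), another ligand of that receptor, rose. Secreted factors as a list gave 12 rises and 7 falls among 23 (median 0.23), with Pdgfb, a ligand of platelet-derived growth factor receptors, at 340.5 ± 18.9 CPM at 25 h and 189 ± 3.25 CPM at 17 h (0.85 ± 0.06). Of 11 Wnt targets 7 fell and 1 rose (median -0.19). Tcf7, a factor of the pathway, stood at 12.6 ± 1.30 CPM at 25 h and 25.8 ± 1.91 CPM at 17 h (-1.03 ± 0.08). The 1 rise was Myc (0.22 ± 0.08), a growth-promoting transcription factor, and it was not called without replicate 2 or 3 of 25 h or replicate 3 of 17 h or with total counts, while without replicate 4 of 17 h or with the 8 control libraries alone 2 genes rose.

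FOXO factors turn on genes when insulin signalling is low. A mixed list of insulin and FOXO targets rose in 13 of 20 cases and fell in 3 (median 0.29). Fbxo32, a ubiquitin ligase, had 71.9, 66.4, 75.8 and 68.6 CPM in the 25 h libraries, against 39.1, 41.0, 39.9 and 42.0 CPM in the 17 h libraries. The libraries of each time lay within a narrow band (0.80 ± 0.06, edgeR adjusted p = 1.25e-10). Ccng2, a cyclin of resting cells (0.61 ± 0.05), and Pik3ip1, an inhibitor of PI3 kinase (0.70 ± 0.06), rose. Trib3, the insulin receptor substrate Irs1 (-0.32 ± 0.07) and the pseudokinase Trib1 (-0.21 ± 0.06) were the members that fell. Glycolysis and hypoxia genes rose in 15 of 32 cases and fell in 4 (median 0.11); with total counts in place of TMM or with the 8 control libraries alone 7 fell, and 1 or 2 fell without replicate 3 of 25 h or without replicate 2 or 3 of 17 h. Ndrg1, a gene induced by low oxygen, had 1506, 1569, 1438 and 1532 CPM in the 25 h libraries, against 779, 935, 859 and 880.0 CPM in the 17 h libraries. All 25 h libraries exceeded the highest 17 h library (0.81 ± 0.05, edgeR adjusted p = 7.22e-12). The secreted peptide Adm (1.39 ± 0.10) and the collagen hydroxylases P4ha1 (0.63 ± 0.04) and P4ha2 (0.61 ± 0.05) rose. Hk2, hexokinase 2, fell by 0.33 ± 0.10 and lost its call without replicate 2 of 25 h or replicate 2 of 17 h (edgeR adjusted p of 0.0508 and 0.0648).

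Among genes of energy supply and translation, nuclear genes of the respiratory chain fell in 16 of 36 cases and were not called in 20 (median -0.14), with Ndufa4 at 83.3 ± 1.88 CPM at 25 h and 108 ± 7.41 CPM at 17 h (-0.38 ± 0.06). Of 12 tested mitochondrial genes 7 fell and 5 were not called (median -0.27), and 4 fell without replicate 1 of 25 h, without replicate 1 of 17 h or with DESeq2. Over the 8 libraries mt-Nd4l averaged 1.02 CPM, mt-Atp6 10.5 CPM and mt-Co3 24.3 CPM, against 1758 CPM for mt-Nd5. Some of these genes overlap each other, so reads may have been lost or shared, which was not tested. The genes for complex I subunits mt-Nd1 (-0.74 ± 0.12, at 1221 ± 71.3 CPM at 25 h and 2041 ± 164 CPM at 17 h) and mt-Nd2 (-0.64 ± 0.11) had the smallest p. Cytosolic ribosomal protein genes were nearly flat, with 7 rises and 35 not called among 42 (median 0.07), Rpl5 (0.15 ± 0.04) and Rpl22 (0.21 ± 0.05) having the smallest p. That count was 3 without replicate 1 of 25 h, 4 without replicate 4 of 25 h or replicate 1 of 17 h, 2 with total counts (1 fall) and 16 with the 8 control libraries alone (1 fall). Without the DEX libraries that stood apart it was 18 (1 fall). Ribosome biogenesis genes fell in 11 of 30 cases and rose in 5, or in 3 without replicate 1 of 17 h or with total counts (median -0.0040): the box C/D ribonucleoproteins Nop56 (-0.40 ± 0.04) and Nop58 (-0.49 ± 0.06) fell, while Bop1 (0.38 ± 0.05), which lies over the more abundant Mroh1 on the other strand, and Utp20 (0.35 ± 0.05) rose. Autophagy and lysosome genes gave 10 falls and 6 rises among 32 (median -0.04), beside calls for 43.5% of all genes. Genes of xenobiotic handling fell in 12 of 23 cases and rose in 4 (median -0.24), with falls of the bile canalicular pump Abcc2 (-0.69 ± 0.07), the dioxin-inducible Cyp1a1 (-0.80 ± 0.10) and the efflux pump Abcg2 (-0.44 ± 0.06), while Ephx1 rose.

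The core clock changed little in control cells. Of 21 tested clock genes 8 rose, 2 fell and 11 were not called (median 0.05), a share of calls close to the 43.5% of all genes. The clearest change was in Tef, a PAR bZIP factor under clock control, which had 56.9, 60.4, 62.8 and 59.4 CPM in the 25 h libraries, against 90.6, 89.5, 91.7 and 90.1 CPM in the 17 h libraries. The groups were narrow and separate (-0.59 ± 0.05, edgeR adjusted p = 9.53e-10). Per1, a repressor of the loop that also answers to outside signals, had 41.2, 45.3, 42.5 and 39.2 CPM in the 25 h libraries, against 29.6, 32.7, 26.4 and 30.1 CPM in the 17 h libraries. All 25 h libraries were higher (0.50 ± 0.07, edgeR adjusted p = 4.86e-06). Ciart, a repressor of Arntl and Clock, rose by 1.12 ± 0.19 at a low level, 3.74 ± 0.497 CPM at 25 h and 1.71 ± 0.458 CPM at 17 h. Smaller rises included those of Bhlhe40 (0.37 ± 0.06), Nr1d1 (0.34 ± 0.11), Nfil3 (0.30 ± 0.06) and the kinase genes Csnk1e (0.25 ± 0.04) and Csnk1d (0.15 ± 0.04), the last of which was not called with total counts (edgeR adjusted p = 0.0550). Cry1, a repressor of the loop, fell by 0.35 ± 0.11. Nr1d1 lies over Thra on the other strand.

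The activators Arntl and Clock and the output gene Dbp were not called. Arntl had 20.4, 20.5, 19.7 and 16.6 CPM in the 25 h libraries, against 20.2, 19.9, 20.3 and 18.4 CPM in the 17 h libraries, and the groups overlapped (-0.03 ± 0.09, edgeR adjusted p = 0.805). Dbp, an output with a wide daily swing in liver, had 8.63, 8.07, 8.98 and 10.5 CPM in the 25 h libraries, against 7.51, 10.5, 8.17 and 8.90 CPM in the 17 h libraries, and the groups overlapped fully (0.05 ± 0.11, edgeR adjusted p = 0.749). Values for others were 0.08 ± 0.05 for Clock, -0.18 ± 0.10 for Per2, -0.13 ± 0.09 for Per3, -0.06 ± 0.08 for Cry2, 0.12 ± 0.06 for Nr1d2, -0.03 ± 0.11 for Bhlhe41, -0.02 ± 0.08 for Rorb and -0.35 ± 0.34 for Arntl2. Per2 was lower in every 25 h library and passed with the 8 control libraries alone (edgeR adjusted p = 0.0198), as did Nr1d2 (0.0487). Without the DEX libraries that stood apart Per2 passed as well (edgeR adjusted p = 0.0259). For Dbp, Arntl, Bhlhe41 and Rorb the direction itself turned in at least 1 alternative, so no direction is given for them.

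**Figure D4:**
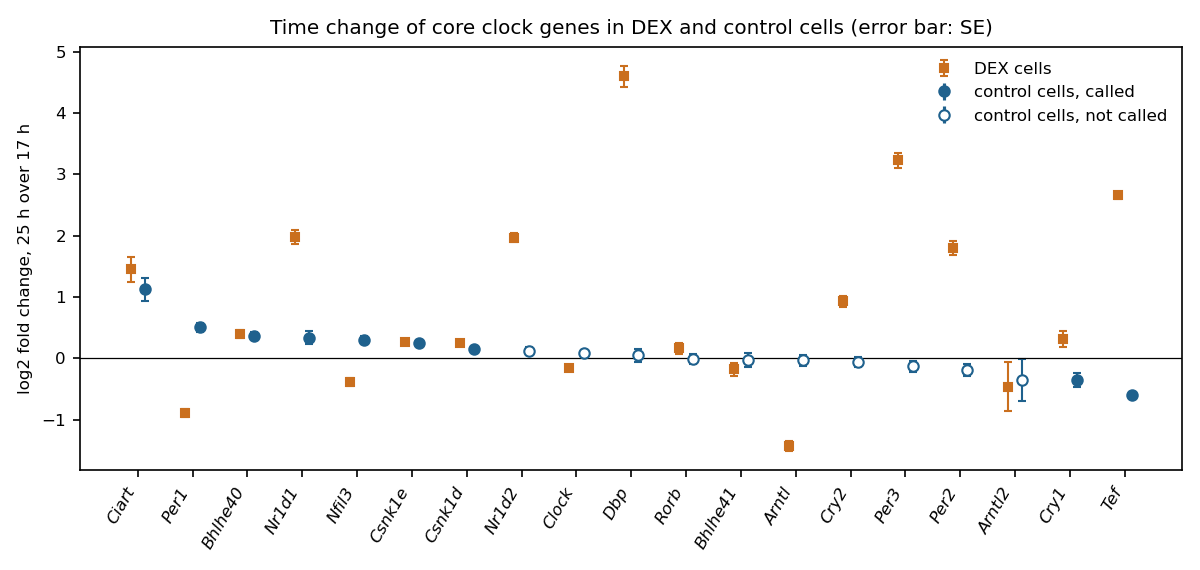
Log2 fold change of 25 h over 17 h ± SE for core clock genes in DEX cells (squares) and control cells (circles, filled where called), 4 libraries per group. Control values lie between -0.59 and 1.12, whereas DEX values reach 4.60 for Dbp.

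The same interval in cells given DEX, measured in separate libraries, shows which of these changes differed. In DEX cells 7899 genes were called between 25 h and 17 h (56.0% of those tested). Of the 6140 control calls, 4705 were called in the same direction in DEX cells, which is 76.6% of the control calls and 59.6% of the DEX calls. The difference between the time changes was itself tested in the same edgeR fit and called for 2283 genes (16.2% of those tested), 1322 of them called in control cells, or 21.5% of the control calls. Without the pair of DEX libraries that stood apart it was called for 2773 genes. A difference is given as the time change in DEX cells minus that in control cells.

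The cell cycle falls showed almost no difference. Of 36 S phase genes the difference was called for 3 (2 above 0, 1 below), with a median difference of 0.05, and in the G2 and mitosis list the median difference was -0.06. Ccnb1 changed by -0.96 ± 0.06 in DEX cells and by -0.97 ± 0.06 in control cells (difference 0.01 ± 0.09, edgeR adjusted p = 0.98). Likewise Slc7a11 changed by -2.25 ± 0.08 in DEX cells and by -1.97 ± 0.09 in control cells (difference -0.29 ± 0.13, edgeR adjusted p = 0.134). For 17 of the 29 amino acid genes the difference was called below 0 and for 1 above 0. Asns changed by -1.28 ± 0.05 in DEX cells and -0.75 ± 0.05 in control cells (difference -0.53 ± 0.07, edgeR adjusted p = 4.8e-06). For 21 of the 32 chemokine and NF-kB genes the difference was called, above 0 in all 21, for example Vcam1 at 2.28 ± 0.06 in DEX cells and 0.79 ± 0.06 in control cells (difference 1.49 ± 0.09, edgeR adjusted p = 7.73e-12). Nfkbia changed by 1.05 ± 0.06 in DEX cells and 1.05 ± 0.06 in control cells, with a difference of 0.0017 ± 0.08 (edgeR adjusted p = 0.993). Egr1 rose less in DEX cells, by 1.29 ± 0.12 against 2.14 ± 0.12 in control cells (difference -0.85 ± 0.18, edgeR adjusted p = 0.00115).

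Among the 21 clock genes the difference was called for 13, 9 above 0 and 4 below. Dbp rose by 4.60 ± 0.17 in DEX cells, against 0.05 ± 0.11 in control cells (difference 4.55 ± 0.21, edgeR adjusted p = 9.59e-14), and Per3 by 3.23 ± 0.13 in DEX cells, against -0.13 ± 0.09 in control cells (difference 3.36 ± 0.16). Arntl changed by -1.43 ± 0.09 in DEX cells, against -0.03 ± 0.09 in control cells (difference -1.40 ± 0.12, edgeR adjusted p = 1.16e-08). Tef rose by 2.66 ± 0.06 in DEX cells and fell by 0.59 ± 0.05 in control cells (difference 3.26 ± 0.08, edgeR adjusted p = 1.46e-19). It was 1 of 186 genes called in opposite directions. Of these, 126 rose in control cells and fell in DEX cells and 60 did the reverse. The difference was called for all 186, which calls in opposite directions in 1 fit nearly require, so it adds no support for them. Genes known to respond to glucocorticoids were among them: of 24 tested, 13 rose and 4 fell in control cells (median 0.25), whereas in DEX cells 7 rose and 15 fell (median -0.76). Per1 changed by -0.89 ± 0.06 in DEX cells and 0.50 ± 0.07 in control cells, Tsc22d3, a glucocorticoid-induced leucine zipper protein, by -0.92 ± 0.05 in DEX cells and 0.61 ± 0.05 in control cells, and Klf9, a transcription factor, by -0.83 ± 0.05 in DEX cells and 0.31 ± 0.05 in control cells. The 4 falls in control cells were 2 without replicate 3 of 25 h or replicate 3 of 17 h. Ppl, Ampd3, Pim3 and Tns1, named with Tsc22d3 and Klf9 after their values were seen, also went opposite ways, at -1.09 ± 0.04, -1.05 ± 0.05, -1.39 ± 0.05 and -0.12 ± 0.04 in DEX cells, against 0.47 ± 0.04, 0.70 ± 0.05, 0.30 ± 0.05 and 1.00 ± 0.04 in control cells. Not all of the list went opposite ways: Gadd45b rose by 1.13 ± 0.07 in DEX cells and by 1.22 ± 0.07 in control cells (difference -0.09 ± 0.10, edgeR adjusted p = 0.632), and Mt1, a metallothionein, fell by 1.28 ± 0.06 in DEX cells and fell by 0.91 ± 0.06 in control cells (difference -0.37 ± 0.09, edgeR adjusted p = 0.00516).

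**Figure D5:**
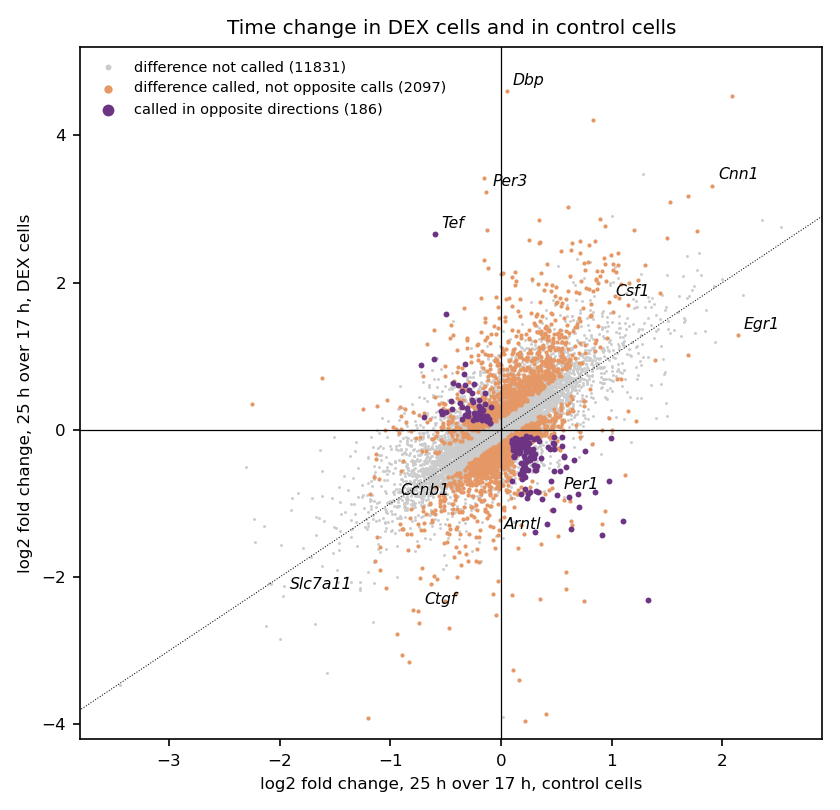
Log2 fold change of 25 h over 17 h in DEX cells (vertical axis) and control cells (horizontal axis) for each of 14114 genes. The dotted line marks equal change; the 186 genes called in opposite directions and the 2097 others whose difference was called are coloured, and Dbp and Per3 lie high above 0 on the DEX axis near 0 on the control axis.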

How the data were processed

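RNA-seq of AML12 cells was analysed from a deposited table of raw counts per gene. Per the labels' protocols, TRIzol served for total RNA and the NEBNext Ultra II kit for libraries. Per the submitters' processing notes, FastQC 0.11.8 and STAR were used with mm10 (GRCm38); no counter, strand setting or annotation is given there.

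All 16 AML12 libraries entered 1 fit with 1 mean per group of 4: edgeR 4.0.16 (R 4.3.3), TMM scaling, filterByExpr by group (14114 of 27843 genes kept), quasi-likelihood test, Benjamini-Hochberg adjustment at 0.05. The difference between DEX and control cells was a contrast of that fit. The steps were tested on simulated data. CPM use TMM-scaled totals, the CPM floor for named genes was 1, and SD is over 4 libraries. Positions are from GENCODE M21, and promoter sequences from RefSeq.

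Alternatives were DESeq2 1.42.0, limma-voom 3.58.1, other scalings and filters, thinning, a replicate block, the 8 control libraries alone and leaving out each control library. Named were the 15 largest rises and falls, the tested core clock genes and up to 4 genes per other list with the smallest p. Other genes were named after their values were seen, among them Areg, Crim1, Krt19, Atf4, Irs1, Trib1, Hk2, Plin2, Syvn1 and Myc. The members, the gene lists and the promoter motifs were chosen with earlier results of these data known. Some genes that this rule names are not reported here. The HL-1 libraries were not analysed here.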

Additional observations from a re-analysis of the deposited data

Results flagged for a closer look

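In 20 of 336 groups of 4 libraries (168 genes at 2 times), 1 library lay apart from the other 3 by Dixon's criterion, where chance gives about 1 in 20. At 25 h these were Apol8 at 0.174 CPM in replicate 4, Mcm4 at 25.9 CPM in replicate 4, Acss2 at 10.4 CPM in replicate 2, Hspa5 at 403 CPM in replicate 1, Gclc at 276 CPM in replicate 3, Vcam1 at 239 CPM in replicate 1, Tcf7 at 10.7 CPM in replicate 3, Trib1 at 90.0 CPM in replicate 2 and Amd1 at 61.6 CPM in replicate 3. At 17 h these were Clca3b at 15.9 CPM in replicate 4, Ccne1 at 1.34 CPM in replicate 4, Cry2 at 20.5 CPM in replicate 3, Mcm3 at 91.0 CPM in replicate 1, Ccnd1 at 497 CPM in replicate 1, Dhcr7 at 59.0 CPM in replicate 3, Plin2 at 296 CPM in replicate 3, Cpt1a at 159 CPM in replicate 1, Bop1 at 158 CPM in replicate 4, Saa3 at 99.6 CPM in replicate 2 and Stat2 at 89.2 CPM in replicate 1.

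The 168 genes checked here are most but not all of the genes named above. The change between 25 h and 17 h differed between DEX and control cells for 67 of them. This used edgeR's test of the difference at an adjusted p of 0.05. Of the 67, 66 kept that call without the pair of DEX libraries that stood apart, Ereg being the exception. Named genes outside the 168 were not screened, among them Hpx, C1s1 and C1ra, whose differences of 0.86, 0.67 and 0.53 were called too. Over all genes tested the difference was called for 16.2%. Some of the 168 genes, such as Tsc22d3 and Ppl, were named after their values were seen, so their share cannot be set against that of all genes. Values for the 67 are the log2 time change in DEX cells minus that in control cells, and 32 were above 0. The largest were Dbp 4.55, Per3 3.36, Tef 3.26, Per2 1.98, Nr1d2 1.84, Nr1d1 1.64, Clca3b 1.56, Vcam1 1.49 and Cnn1 1.41. Next came Ppbp 1.10, Hk2 1.09, Thbs1 0.99, Cry2 0.99, Agt 0.93, Abcc2 0.86, Csf1 0.76, Fbxo32 0.74 and Cry1 0.66. They were followed by Pmaip1 0.60, Irf1 0.59, Cyr61 0.58, Ccng2 0.50, Cdc6 0.44, Ephx1 0.36, Crim1 0.36 and Pdgfb 0.33, and then by Ddx58 0.32, Dsg2 0.31, C3 0.26, Actg1 0.24, Abcc3 0.22 and Hbegf 0.22. Of the 35 below 0, the largest in size were Ampd3 -1.75, Ctgf -1.70, Pim3 -1.69, Ppl -1.55, Tsc22d3 -1.53, Arntl -1.40, Per1 -1.39, Klf9 -1.14 and Tns1 -1.11. After them came Fos -1.07, Gclc -1.02, Egr1 -0.85, Cryab -0.74, Nfil3 -0.68, Lrrc32 -0.67, Trib3 -0.65, Areg -0.61 and Dusp6 -0.56. Smaller differences were Slc7a5 -0.56, Asns -0.53, G6pdx -0.46, Acss2 -0.46, Adm -0.44, Nop56 -0.41, Mt1 -0.37, Mthfd2 -0.37 and Krt19 -0.37, and the smallest were Ereg -0.34, Cdkn1a -0.31, Ndrg1 -0.25, Amd1 -0.24, Clock -0.24, Stat2 -0.23, Cpt1a -0.21 and P4ha1 -0.17.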

How the results depend on the processing

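The number of genes called between 25 h and 17 h in control cells was 5753 with DESeq2, 6119 with limma-voom, 6145 with RLE size factors, 6377 with total counts, 6083 without the low-count filter, 6001 after thinning, 6902 with the 8 control libraries alone and 6935 without the pair of DEX libraries, an alternative chosen after seeing the data. Leaving out each control library in turn gave 5486 to 5709 and kept 87.1% to 90.0% of the 6140 calls. Libraries with the same replicate number deviated together by correlations of 0.13, 0.03, -0.09 and -0.04, so they share only a number; with a replicate block 6095 genes were called. Of 2854 values of 168 genes under 17 settings, 2821 kept their direction and their side of the threshold. The call was lost in 19 (6 genes) and gained in 3. Not every gene named above is among the 168: Myc, whose call was lost in settings given above, is left out of these counts. Within the 168 the direction turned only for genes that were not called. Rorb was at 0.0301 after thinning. When each control library was left out in turn, Dbp ranged from -0.0290 to 0.142, Arntl from -0.0621 to 0.0385, Bhlhe41 from -0.0730 to 0.0485, Rorb from -0.0569 to 0.0249 and E2f1 from -0.0957 to 0.0200; the cause was not tested. Depth limits the genes with under 10 reads in a library, such as Apol8 and Ccne1.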

Other observations

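Among gene classes that the lists did not cover, 359 antisense RNAs were tested. Of these 24.5% were called higher and 7.80% lower at 25 h, with a median log2 fold change of 0.16. Because the strand setting of the counting is not given, their counts may hold reads of genes on the opposite strand. Of 449 lincRNAs 20.3% were higher and 12.5% lower (median 0.06), and of 11703 protein-coding genes 23.6% were higher and 23.6% lower (median -0.01). The tenth of genes with the longest transcripts (median 7874 bases) had 37.4% of genes higher and 17.5% lower, and the tenth with the shortest (median 636 bases) had 8.16% higher and 13.6% lower. Across genes, which are not independent replicates, Spearman's rho of the fold change was 0.10 with transcript length and 0.10 with GC content; their part in the results was not tested.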
